A study of Homo sapiens with 2 samples.

Results

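The proteasome genes were 49 of 20033 protein-coding genes in RefSeq on GRCh38.p14, taken by symbol: PSMA, PSMB, PSMC, PSMD, PSME, PSMF or PSMG followed by a digit, without PSMC3IP. The rule also took PSME3IP1, whose protein binds PSME3 and is not a proteasome subunit, and it is named apart. CUT&Tag, in which a tethered transposase marks the DNA bound by an antibody's target, was run for EWS-FLI in TC32, an established Ewing sarcoma line. EWS-FLI joins part of EWSR1 to FLI1, an ETS-family DNA-binding protein. One group was TC32 cells given siEWS-FLI and the other TC32 cells given siNEG, with 1 library each. The labels name neither the antibody nor what siNEG stands for. With 1 library per group no difference below has a replicate check, and no test between the groups was made.

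The proteasome is the barrel-shaped protease that degrades proteins tagged with ubiquitin. Its core particle stacks rings of alpha subunits, which gate the entrance, around rings of beta subunits, some of which hold the catalytic sites. A regulatory particle with a base of ATPases and a lid recognises, deubiquitinates and unfolds substrates. The transcription factor NFE2L1 raises proteasome genes together through antioxidant response elements when proteasome activity is low. ETS factors bind sequences around a GGAA core at many such promoters, and EWS-FLI binds both single ETS sites and GGAA repeats.

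Promoter stretches are shown for 6 genes with a siNEG summit within 250 bases of a transcription start. All hold the ETS core CCGGAA, on either strand, in the bases before that start. Each run is the 120 bases that end just before the RefSeq transcription start (GRCh38.p14), written 5′ to 3′ on the gene's strand, and no other annotated gene overlaps it. Capitals mark the ETS core, which reads TTCCGG where it lies on the opposite strand.
PSMD8: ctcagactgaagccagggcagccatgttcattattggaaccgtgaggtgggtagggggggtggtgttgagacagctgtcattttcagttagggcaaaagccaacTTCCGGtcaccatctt
PSMD2: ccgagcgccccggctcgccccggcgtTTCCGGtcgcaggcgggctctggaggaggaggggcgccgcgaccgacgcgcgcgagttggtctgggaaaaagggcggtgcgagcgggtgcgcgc
PSMD9: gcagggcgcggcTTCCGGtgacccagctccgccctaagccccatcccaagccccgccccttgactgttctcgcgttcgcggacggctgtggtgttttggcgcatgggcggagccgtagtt
PSMD11: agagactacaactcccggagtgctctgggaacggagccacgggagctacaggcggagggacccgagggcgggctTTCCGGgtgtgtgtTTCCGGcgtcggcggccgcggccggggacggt
PSMD12: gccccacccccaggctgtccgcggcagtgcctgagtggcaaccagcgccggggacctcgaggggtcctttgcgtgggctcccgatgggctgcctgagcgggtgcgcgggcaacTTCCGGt
PSMC6: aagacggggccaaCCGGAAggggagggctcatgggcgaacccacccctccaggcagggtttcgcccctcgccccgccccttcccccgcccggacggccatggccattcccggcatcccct
PSMD8 is on chr19:38374451-38374570 and PSMD2 on chr3:184299121-184299240, both on the plus strand. PSMD9 is on chr12:121888670-121888789, PSMD11 on chr17:32444390-32444509 and PSMC6 on chr14:52707080-52707199, also on the plus strand. PSMD12 lies on the minus strand at chr17:67366578-67366697. PSMD11 holds the core at 2 places and the other 5 genes at 1 place in this stretch. The siNEG interval of PSMC6, chr14:52706796-52706995, lies upstream of its stretch and overlaps neither the stretch nor the marked core.

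Another 4 genes with a site called in both libraries are shown because none had CCGGAA in its window. The shorter GGAA, which all 4 stretches hold on either strand, was not searched for and is not marked. Capitals mark the antioxidant response core TGACNNNGC, which PSMB3 and PSMD3 hold in this stretch and PSMA5 and PSMC4 do not.
PSMB3: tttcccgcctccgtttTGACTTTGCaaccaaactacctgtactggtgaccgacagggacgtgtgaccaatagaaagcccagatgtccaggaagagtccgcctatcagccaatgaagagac
PSMD3: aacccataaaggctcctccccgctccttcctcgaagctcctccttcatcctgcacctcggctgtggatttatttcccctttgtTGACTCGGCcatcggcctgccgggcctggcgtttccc
PSMA5: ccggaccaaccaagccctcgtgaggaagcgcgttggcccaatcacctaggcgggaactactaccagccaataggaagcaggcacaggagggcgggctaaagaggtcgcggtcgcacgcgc
PSMC4: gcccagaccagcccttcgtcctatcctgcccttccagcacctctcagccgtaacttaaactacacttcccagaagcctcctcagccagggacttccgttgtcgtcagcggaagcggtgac
PSMB3 is on chr17:38752621-38752740, PSMD3 on chr17:39980687-39980806 and PSMC4 on chr19:39971045-39971164, all on the plus strand. PSMA5 lies on the minus strand at chr1:109426449-109426568.

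Most proteasome genes had a siNEG summit at a gene end, and fewer had one with siEWS-FLI. A gene end here is a summit within 1 kb of either annotated end of a gene. With siNEG 29 of 49 genes had one (59.2%, against 34.1% of all protein-coding genes), and with siEWS-FLI 15 of 49 (30.6%, against 12.3%). Both libraries had a gene-end summit at 14 genes, and neither did at 19. Within 50 kb of an end, 47 of 49 genes had a siNEG summit (95.9%, against 71.8%) and 29 a siEWS-FLI summit (59.2%, against 44.5%). Of the 20 proteasome genes without a siNEG gene-end summit, 18 had a siNEG summit within 50 kb (90%, against 57.2%), and 5 of these 18 sites overlapped a siEWS-FLI interval (27.8%, against 28.5%). In each library the share of genes with a summit was larger for the proteasome genes than for all genes at both distances. This is a description of these libraries, with no test of the list.

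**Figure D1:**
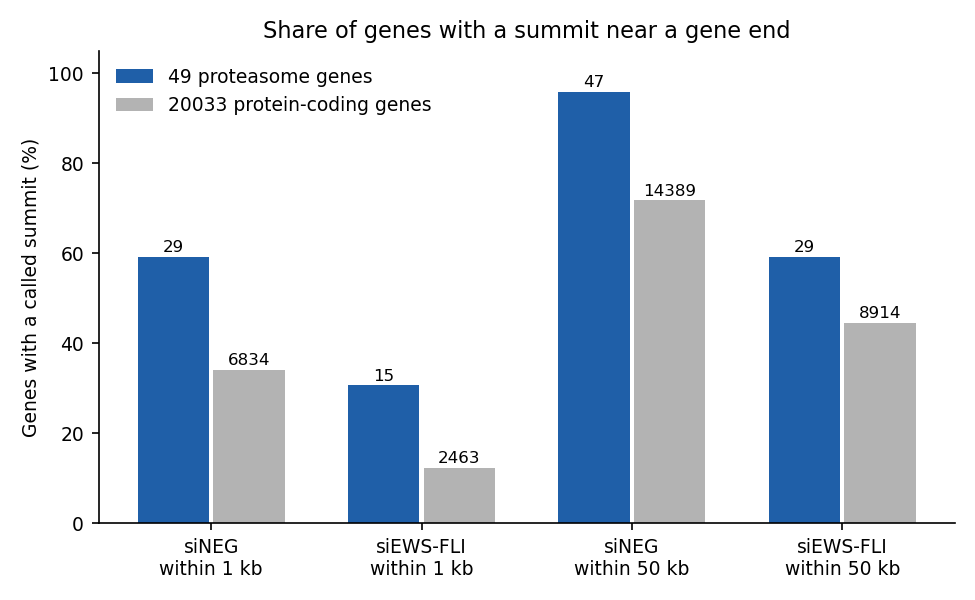
Bars give the percentage of genes with a called summit within 1 kb or 50 kb of either gene end in each library, for 49 proteasome genes (blue) and 20033 protein-coding genes (grey), with the number of genes above each bar. The blue bar is the taller in all 4 pairs, from 30.6% against 12.3% for siEWS-FLI within 1 kb to 95.9% against 71.8% for siNEG within 50 kb.

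Signal is given as the summit pileup, a count of the extended reads that cover the summit, with an exact 95% Poisson interval that covers counting error only. Reads were amplified by PCR and carry no molecular identifiers, so they are not independent molecules. Pileups are raw and not scaled between libraries. The lists held 16284 siNEG and 6370 siEWS-FLI intervals, and the library-wide background was 0.348 and 0.239 reads per base, a ratio of 0.687. The lowest called pileup was 4 reads in both. A site without a call may still carry reads. At the siEWS-FLI library background a pileup of up to 3 reads stays uncalled, and more where the local background is higher.

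Over the 29 genes with a siNEG gene-end summit, pileups ran from 4 to 103 reads with a median of 18. Over all 6834 such genes the median was 12. A pileup of 20 or more was reached by 14 of the 49 proteasome genes (28.6%, against 11.1% of all genes), and one of 50 or more by 4 (8.16%, against 3.92%). These 4 were PSMD13, PSMD8, PSME3IP1 and PSMB1. Another 10 genes had 20 to 49 reads, 5 had 10 to 19 and 10 had fewer than 10. In the order of pileups, the intervals of all 28 neighbouring pairs overlapped, so no gene stood apart from the next beyond counting error. Only PSMD8 among the other 28 had an interval that met that of PSMD13.

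**Figure D2:**
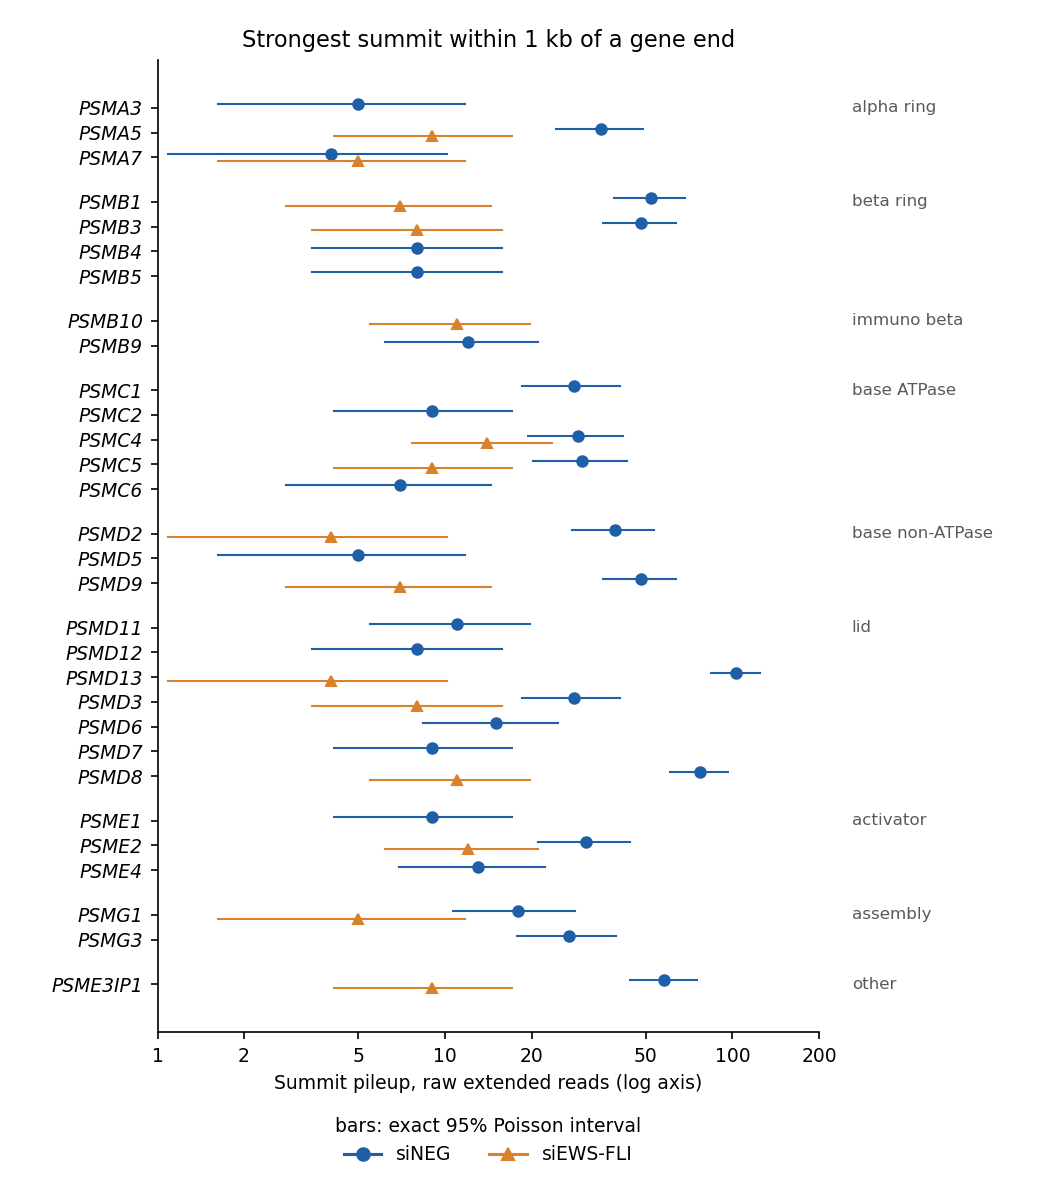
Each row is a proteasome gene with a called summit within 1 kb of an end in either library, grouped by role, and the x axis is the raw summit pileup on a log scale. Circles are siNEG, triangles siEWS-FLI and bars exact 95% Poisson intervals. siNEG values reach 103 reads at PSMD13, while no siEWS-FLI value is above the 14 reads of PSMC4.

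In the lid, which takes ubiquitin off substrates, 7 of 8 genes had a siNEG gene-end summit (against 34.1% of all genes). Their pileups ran from 8 to 103 reads with a median of 15. PSMD13 and PSMD8 had the highest pileups of all proteasome genes, and the other 5 lid genes had 28 or fewer. PSMD13, a structural lid subunit, had 103 reads (84.1 to 125) with siNEG at chr11:236509-237222, with its summit 64 bases inside the gene and a fold enrichment over local background, as deposited by the authors, of 16.3. With siEWS-FLI no interval overlapped it, and the only gene-end summit was one of 4 reads (1.09 to 10.2) at chr11:237497-237696, 620 bases inside the gene. On the local background that siNEG had there, up to 16 reads would go uncalled. The siEWS-FLI local background at that site is not known. Such a bound can be too high: PSMB1 was called with 7 siEWS-FLI reads, where the same bound was 11. The summit of PSMD13 also lies within 1 kb of an end of SIRT3, the gene of a mitochondrial deacetylase.

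PSMD8, another lid subunit, had 77 reads (60.8 to 96.2) with siNEG at chr19:38374394-38374876 and 11 (5.49 to 19.7) with siEWS-FLI at chr19:38374455-38374855. Its siNEG fold enrichment of 23.5 was the highest of the 10 proteasome gene-end sites with the most siNEG reads. The summits lay 17 and 23 bases inside the gene, just past the promoter stretch shown above. The siEWS-FLI pileup was 0.143 of the siNEG one (0.0685 to 0.27), and the intervals of the 2 values do not overlap. PSMD3, also of the lid, had 28 siNEG reads (18.6 to 40.5; fold enrichment 13.4) at chr17:39980435-39980838 and 8 (3.45 to 15.8) with siEWS-FLI, a ratio of 0.286 (0.113 to 0.643). Weaker lid sites were called with siNEG alone: PSMD6 had 15 reads (8.40 to 24.7), PSMD11 11 (5.49 to 19.7), PSMD7 9 (4.12 to 17.1) and PSMD12 8 (3.45 to 15.8). PSMD14, the lid's deubiquitinase, was the lid gene without a gene-end summit. It had no siNEG summit within 50 kb either, and a siEWS-FLI summit of 4 reads 48.1 kb away.

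The base of the regulatory particle holds the ATPases PSMC1 to PSMC6, which unfold substrates. Of these 6 genes 5 had a siNEG gene-end summit (against 34.1% of all genes). PSMC5 had 30 reads (20.2 to 42.8; fold enrichment 13.0) with siNEG at chr17:63826902-63827551 and 9 (4.12 to 17.1) with siEWS-FLI, a ratio of 0.3 (0.125 to 0.648). PSMC4 had 29 reads (19.4 to 41.6; fold enrichment 13.6) with siNEG at chr19:39970853-39971300 and 14 (7.65 to 23.5) with siEWS-FLI. That ratio of 0.483 (0.236 to 0.943) was the highest among proteasome gene-end sites, and there the intervals of the 2 pileups overlap. PSMC1 had 28 reads (18.6 to 40.5) with siNEG at chr14:90256442-90256775 and no siEWS-FLI summit. On siNEG's local background up to 5 reads would go uncalled, but the siEWS-FLI local background there is not known. PSMC2 had 9 siNEG reads and PSMC6 7, and neither was called with siEWS-FLI. PSMC3 was the ATPase without a gene-end summit in either library. Pileups of the ATPase genes thus fell into a stronger set near 30 reads and a weaker set under 10.

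The other base genes include scaffold subunits, a ubiquitin receptor and assembly chaperones. Of these 6 genes 3 had a siNEG gene-end summit (against 34.1% of all genes). PSMD2, a large scaffold subunit, had 39 reads (27.7 to 53.3; fold enrichment 16.7) with siNEG at chr3:184298855-184299464 and 4 (1.09 to 10.2) with siEWS-FLI. Its ratio of 0.103 (0.0266 to 0.284) was the lowest of the proteasome gene-end sites called in both libraries. PSMD9, a chaperone of base assembly, had 48 reads (35.4 to 63.6; fold enrichment 18.3) with siNEG at chr12:121888449-121888924 and 7 (2.81 to 14.4) with siEWS-FLI, a ratio of 0.146 (0.0557 to 0.324). PSMD5, another such chaperone, had 5 siNEG reads (1.62 to 11.7) only. PSMD1, the other large scaffold subunit, PSMD4, a ubiquitin receptor, and PSMD10, a chaperone also known as gankyrin, had no gene-end summit. Of all 49 genes, PSMD10 on chromosome X was the one with no summit within 50 kb in either library.

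In the alpha and beta rings of the core particle 7 of 15 genes had a siNEG gene-end summit (against 34.1% of all genes), with a median of 8 reads (against 12). In the base and lid together 15 of 20 did, with a median of 28. These 20 include the assembly chaperones PSMD5, PSMD9 and PSMD10, while the 15 leave out the core's chaperones PSMG1 to PSMG4. The difference between the sets was not tested. Of the 8 alpha genes 3 had a siNEG gene-end summit. PSMA5 had 35 reads (24.4 to 48.7; fold enrichment 17.1) with siNEG at chr1:109426467-109426879 and 9 (4.12 to 17.1) with siEWS-FLI, a ratio of 0.257 (0.109 to 0.546). PSMA3 had 5 siNEG reads (1.62 to 11.7) and no siEWS-FLI summit. PSMA7 had 4 siNEG reads (1.09 to 10.2) at one end and 5 siEWS-FLI reads (1.62 to 11.7) at the other, so its calls do not overlap. PSMA1, PSMA2, PSMA4, PSMA6 and PSMA8, the last expressed mainly in testis, had no gene-end summit.

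RefSeq starts inside a gene add to this picture, since some genes have a transcription start far from the outermost annotated end. PSMA6 had 25 siNEG reads (16.2 to 36.9) at chr14:35292218-35292614, with the summit 29 bases past such a start, and no siEWS-FLI summit within 50 kb. PSMA1 had a siEWS-FLI summit of 6 reads (2.2 to 13.1) at chr11:14520341-14520540, 76 bases upstream of its start, and none there with siNEG. PSMF1, a proteasome inhibitor, had 8 siNEG reads (3.45 to 15.8) 66 bases upstream of an inner start. Counted by distance to starts in place of ends, 27 of 43 proteasome genes with a start in the promoter table had a siNEG summit within 1 kb (against 36.9% of 15842 genes) and 14 a siEWS-FLI summit (against 13.6%).

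In the beta ring 4 of 7 genes had a siNEG gene-end summit (against 34.1% of all genes). PSMB1 had 52 reads (38.8 to 68.2; fold enrichment 13.1) with siNEG at chr6:170553929-170554477 and 7 (2.81 to 14.4) with siEWS-FLI, a ratio of 0.135 (0.0516 to 0.298). That summit lies 950 bases from PSMB1 and 112 from TBP, the gene of the TATA-binding protein. PSMB3 had 48 reads (35.4 to 63.6; fold enrichment 11.4) with siNEG at chr17:38751918-38752832 and 8 (3.45 to 15.8) with siEWS-FLI, a ratio of 0.167 (0.0681 to 0.355). PSMB5, which carries the chymotrypsin-like activity, had 8 siNEG reads (3.45 to 15.8) 306 bases beyond the end opposite its start. PSMB6 and PSMB7, with the caspase-like and trypsin-like activities, had no gene-end summit, nor did PSMB2. PSMB4 had 8 siNEG reads (3.45 to 15.8) 11 bases from its start and none with siEWS-FLI.

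Of the 4 genes of inducible and tissue-specific catalytic subunits 1 had a siNEG gene-end summit and 1 a siEWS-FLI one, against 34.1% and 12.3% of all genes. PSMB9, an interferon-induced subunit of the immunoproteasome, had 12 siNEG reads (6.20 to 21.0) at the promoter it shares with TAP1, the gene of a peptide transporter, and none with siEWS-FLI. PSMB10, another such subunit, had 11 siEWS-FLI reads (5.49 to 19.7) at chr16:67935710-67935978 with the summit 983 bases from its end. Its siNEG summit of 31 reads overlapped that interval and lay 1019 bases from the end, just outside the limit, so that this gene counts as called with siEWS-FLI alone only through the threshold. PSMB8 and the thymic PSMB11 had no gene-end summit.

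The activators open the core particle without the regulatory particle, and 3 of 4 genes had a siNEG gene-end summit (against 34.1% of all genes). PSME2 had 31 reads (21.1 to 44.0; fold enrichment 8.70) with siNEG at chr14:24146686-24147623 and 12 (6.20 to 21.0) with siEWS-FLI, with the summit at the same base, 652 bases from PSME2 and nearest to RNF31. The ratio was 0.387 (0.181 to 0.775), and the intervals of the 2 pileups do not overlap. Its partner subunit gene PSME1 had 9 siNEG reads (4.12 to 17.1) and PSME4 13 (6.92 to 22.2), both with siNEG alone. PSME3 had no gene-end summit. The binding-partner gene PSME3IP1 had 58 siNEG reads (44 to 75; fold enrichment 18.0) at chr16:57185757-57186332 and 9 (4.12 to 17.1) with siEWS-FLI, a ratio of 0.155 (0.0676 to 0.315), at a start region shared with RSPRY1.

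Among the chaperones that assemble the core particle, PSMG1 and PSMG3 had siNEG gene-end summits and PSMG2 and PSMG4 did not. This is 2 of 4 genes, against 34.1% of all genes. PSMG3 had 27 reads (17.8 to 39.3) with siNEG at chr7:1569862-1570362 and no siEWS-FLI summit. On siNEG's local background up to 11 reads would go uncalled, but the siEWS-FLI local background there is not known. PSMG1 had 18 reads (10.7 to 28.4; fold enrichment 12.3) with siNEG at chr21:39183410-39183781 and 5 (1.62 to 11.7) with siEWS-FLI, a ratio of 0.278 (0.0806 to 0.776), and the intervals of its 2 pileups overlap. Its summits were 204 bases apart, the widest separation among the shared sites.

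At each proteasome gene-end site called in both libraries the siEWS-FLI pileup was the lower one. Most genes with a shared gene-end site had the same direction: the upper quartile of their siEWS-FLI over siNEG ratio was 0.444. The share of all genes with a lower siEWS-FLI pileup was not counted. Of the 29 siNEG gene-end sites 12 overlapped a siEWS-FLI interval by at least 1 base (41.4%, against 30.8% of all genes with such a site), and 17 did not. At the 12 sites siEWS-FLI pileups divided by siNEG pileups ran from 0.103 to 0.483 with a median of 0.212, and was under 0.5 at 12 of 12, against 77.9% of the 2107 genes with a shared gene-end site. The summed pileups were 493 siNEG and 103 siEWS-FLI reads, a ratio of 0.209 (0.167 to 0.259). This interval treats the pooled reads as 1 count and leaves out the spread between genes. No summed ratio was computed over all genes. At 9 of the 12 sites the whole interval of the ratio lay under the 0.687 of the library backgrounds. That count was not made over the 2107 genes, whose median ratio was 0.267. The part of library depth in the lower pileups was not tested.

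Ratios and calls both moved with siNEG strength, so the shared sites are given within classes of siNEG pileup. At 20 to 49 siNEG reads 8 of 10 proteasome genes had a shared site (80%), against 53.1% of 1438 genes. The median ratio there was 0.271 for proteasome genes and 0.261 for all. At 50 or more reads 3 of 4 were shared, against 86.9% of 786 genes, and the median ratios were 0.143 and 0.138. At 10 to 19 reads 1 of 5 was shared, against 22.5%, and at 4 to 9 reads 0 of 10, against 7.64%. In the classes of 20 to 49 and of 50 or more reads, with 8 and 3 shared proteasome genes, their median ratio was close to that of all genes. Below 20 reads only 1 proteasome gene had a shared site, so ratios were not compared there. No siEWS-FLI pileup under 4 reads is listed, which bounds the ratio from below at weak siNEG sites.

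**Figure D3:**
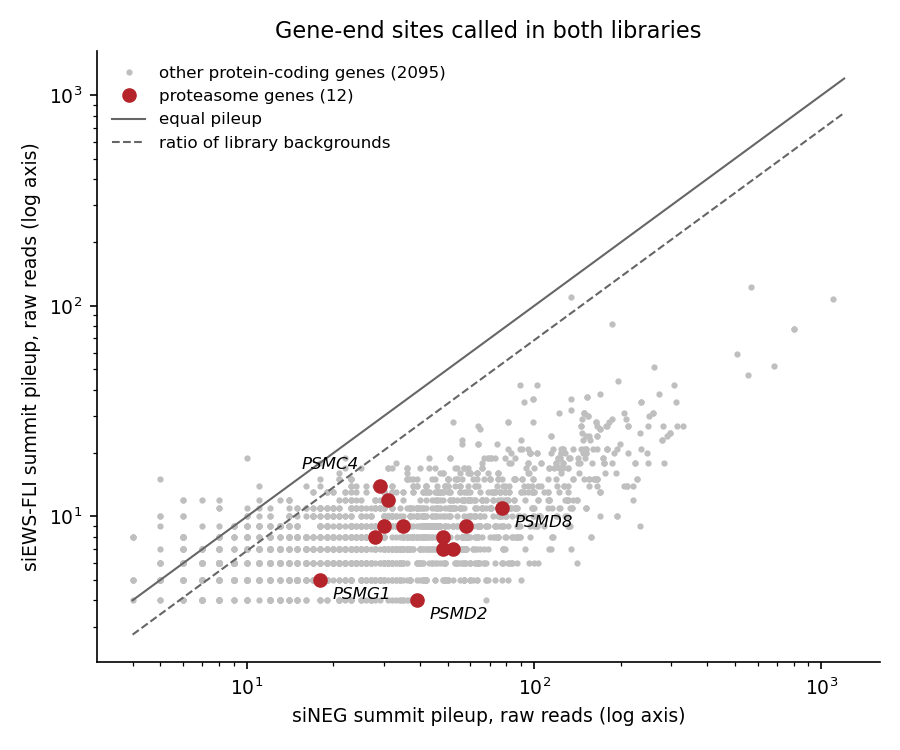
Each point is a gene whose strongest siNEG gene-end site overlaps a siEWS-FLI interval, with the siNEG pileup on the x axis and the siEWS-FLI pileup on the y axis, both raw reads on log scales; red points are 12 proteasome genes and grey points the other genes. The solid line marks equal pileups and the dashed line the 0.687 ratio of library backgrounds. All red points lie under the dashed line, and PSMC4 comes nearest to it.

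Summits sat at promoters. Of the 26 siNEG gene-end sites at proteasome genes with a start in the promoter table, 25 lay within 1 kb of a start (96.2%, against 91.5% over all genes) and 24 within 250 bases (92.3%, against 73.7%). PSMB5 was the exception at 1 kb and PSME2 the other one at 250 bases. Upstream of the start lay 17 of the 25 (68%, against 69.0%). The median distance from the gene end was 133 bases for proteasome genes and 150 for all, and median interval widths were 411 and 422 bases. At the 12 shared sites the summits of the 2 libraries lay 0 to 204 bases apart, with a median of 51.5.

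**Figure D4:**
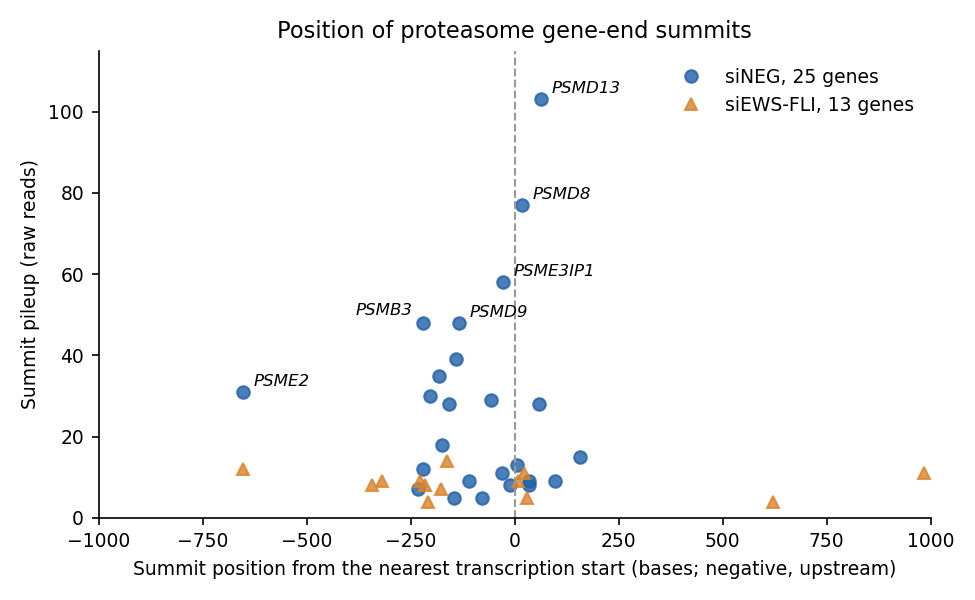
The x axis gives the summit's position from the nearest RefSeq transcription start in bases, negative upstream, and the y axis the raw summit pileup, for proteasome gene-end summits within 1 kb of a start: 25 with siNEG (circles) and 13 with siEWS-FLI (triangles). The 24 siNEG summits other than that of PSME2 lie within 250 bases of a start, with the highest, PSMD13 and PSMD8, just past it.

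Some of these promoters are shared with a neighbour, and a summit there cannot be assigned to one gene. Of the 29 siNEG gene-end sites 11 also lay within 1 kb of an end of another protein-coding gene (37.9%, against 35.7% over all genes). The neighbour's end was the nearer one at 5 of these: TBP at PSMB1, PMPCB at PSMC2, HPD at PSMD9, RNF31 at PSME2 and RSPRY1 at PSME3IP1. SS18L1 at PSMA7, TAP1 at PSMB9, FTSJ3 at PSMC5, SIRT3 at PSMD13, ACYP2 at PSME4 and BRWD1 at PSMG1 were the farther ones. The other 18 sites, PSMD8, PSMB3, PSMD2, PSMA5 and PSMC4 among them, had no second gene end within 1 kb.

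ETS core letters were in the promoter windows of more than 1 in 2 proteasome genes. The search covered RefSeq windows of 300 bases, from 250 before to 50 after each start, on both strands, and 43 of the 49 genes had a window. PSMA7, PSMB1, PSMB6, PSMB7, PSMD4 and PSMG3 had none in the table. The ETS core CCGGAA was in the windows of 23 of 43 genes (53.5%), against 26.6% of 15842 genes. Counted by window, since some genes have several that can overlap, it was in 43.4% of 53 proteasome windows and 21.2% of 22198. The longer CCGGAAGT, which contains that core, was in 11 of 43 genes (25.6%, against 6.97%): PSMA6, PSMA8, PSMC1, PSMC2, PSMD8, PSMD12, PSMD13, PSMD14, PSME3IP1, PSME4 and PSMF1. A run of 3 GGAA units was in none of the 43, against 16 of 15842 genes (0.101%), so its absence does not set the proteasome genes apart. Median GC content was 62.0% in proteasome windows and 62.3% in all.

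Over all genes CCGGAA was in 44.1% of 5745 genes with a siNEG gene-end site and in 16.7% of 10097 without one. Among proteasome genes it was in 15 of 26 with a site and 8 of 17 without. PSMD14 and PSMD10 hold the core and had no siNEG summit within 50 kb. Of the 11 proteasome genes with a window and a site shared with siEWS-FLI, 5 hold the core: PSMC5, PSMD2, PSMD8, PSMD9 and PSME3IP1. The shared sites of PSMA5, PSMB3, PSMC4, PSMD3, PSME2 and PSMG1 lie at windows without it. A match is a description of letters and not a bound site.

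Other letters were searched in the same windows. CCAAT, read by NF-Y, was in 21 of 43 proteasome genes (48.8%, against 42.1%). The antioxidant response core TGACNNNGC was in 15 of 43 (34.9%, against 17.9%). It was in 12 of 26 proteasome genes with a siNEG gene-end site and in 3 of 17 without. Over all genes it was in 19.4% of 5745 with such a site and 17.1% of 10097 without. PSMB3, PSMC4, PSMC5, PSMD3, PSMD9 and PSME2 were among the 12. The palindrome of nuclear respiratory factor NRF1 was in 1 of 43 (2.33%, against 1.99%), PSMA4, which had no gene-end summit.

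Of 29 other genes of proteasome assembly, regulation and ubiquitin supply, 17 had a siNEG gene-end summit (against the 34.1% of all genes), from 7 to 87 reads with a median of 15, and 3 a siEWS-FLI summit (against 12.3%). Those 3 overlapped the siNEG site. ADRM1, the gene of a ubiquitin receptor of the base, had 87 siNEG reads (69.7 to 107) and 6 (2.2 to 13.1) with siEWS-FLI. UFD1, a cofactor of the segregase VCP, had 32 (21.9 to 45.2) and 6 at a site shared with CDC45, and NFE2L1 had 15 (8.40 to 24.7) and 8 (3.45 to 15.8) at one shared with COPZ2. NFE2L1 was named after its values were seen. The strongest sites called with siNEG alone were at UBA6, a ubiquitin-activating enzyme, with 33 reads (22.7 to 46.3), POMP, the core's maturation factor, with 30 (20.2 to 42.8), and RAD23B, a ubiquitin shuttle, with 28 (18.6 to 40.5). DDI2, the protease that activates NFE2L1, and the ubiquitin fusion gene RPS27A, whose site CLHC1 shares, had 19 (11.4 to 29.7) each, also with siNEG alone. NFE2L2, a relative of NFE2L1 that answers oxidative stress, had 16 (9.15 to 26.0).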

How the data were processed

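CUT&Tag peak lists of 1 siNEG and 1 siEWS-FLI library were used, 1 list per library. Per the submitters' processing notes, the authors used MACS2 2.2.9.1, Bowtie2 2.4.5, Trim Galore 0.6.6 and build hg38. The caller's control library, its fragment length and the treatment of duplicates were not given in the sources used here. The deposited columns hold each interval, a score (not used), the fold enrichment as a linear ratio over local background, −log10 of the p-value, the same for the q-value, and the summit position. Values were computed with Python 3.11.15, numpy 2.4.6, pandas 2.3.3 and scipy 1.17.1.

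Lines sharing an interval were merged, keeping the highest −log10 q, on chromosomes 1 to 22, X and Y. The summit pileup was solved from the deposited −log10 p, taken as an upper Poisson tail, and the deposited fold, taken as (pileup + 1) / (background + 1). A whole pileup met both within 0.001 in −log10 p, growing in proportion above 10, in 99.95% of siNEG and 99.91% of siEWS-FLI lines. The solver and the assignment to genes were tested on simulated data. A gene took its strongest summit (by −log10 q) within 1 kb or 50 kb of either end. RefSeq GRCh38.p14 gene positions and promoter windows were used; hg38 has the same coordinates.

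Every proteasome gene is accounted for. The 10 strongest siNEG gene-end sites and those shared with siEWS-FLI are given with coordinates and fold enrichment, and of the other pathway genes the 8 with the highest siNEG pileup are named. The members and lists were chosen with earlier results of these data known. Alternatives changed the distance, threshold, overlap, assignment and width; leaving out PSME3IP1 was added after seeing the gene table.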

Additional observations from a re-analysis of the deposited data

How the results depend on the processing

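Across 28 planned and 7 added alternatives, 28 values stayed and 7 moved. A count stayed if within 1.5 times of the reported one, and a median pileup if within its counting interval. A median ratio stayed if within 0.167 to 0.259, the interval of the ratio of summed pileups, which is not an interval of the median itself. With siNEG, 25 to 32 genes had a gene-end summit under every alternative for it. The 32 were within 5 kb, where 43.1% of all genes had one. Within 2 kb there were 30 (against 37.2%), within 500 bases 27 (against 30.9%), and with intervals wider than 200 bases 26 (against 30%). The 25 came from giving each summit to the nearest gene end only, for which the share over all genes was not computed. The siEWS-FLI calls depended more on the threshold: requiring a −log10 q of 5 or more of both libraries' sites, 7 proteasome genes had a siEWS-FLI gene-end summit (against 6.14% of all genes) and 26 a siNEG one (against 25.1%), 13 had a siEWS-FLI summit within 50 kb, 6 gene-end sites were shared, and the median ratio of shared sites was 0.2714. A reciprocal overlap of 50% left 7 shared sites. Within 10 kb 16 genes had a siEWS-FLI summit. For these shared-site, 50 kb and 10 kb counts the shares over all genes were not computed. Dividing pileups by library background gave a median ratio of 0.3086. Fewer intervals enter under the stricter threshold, overlap and distance. Without PSME3IP1, an alternative chosen after seeing the data, 28 genes had a siNEG and 14 a siEWS-FLI gene-end summit. The median ratio was then 0.2571, against 0.2119 with it. No paired analysis was possible because each group has 1 library and no result comes from a test. The siEWS-FLI gene-end pileups of proteasome genes were 4 to 14 reads, so counting error limits the precision of their ratios.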

Other observations

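Of the 20 proteasome genes without a siNEG gene-end summit 18 had a siNEG summit within 50 kb (90%, against 57.2% of the 13199 genes without one at a gene end), from 4 to 106 reads with a median of 9.5. Of these 18 sites 5 were shared with siEWS-FLI (27.8%, against 28.5%). Near PSMD4, the ubiquitin receptor gene, 106 siNEG (86.8 to 128) and 14 siEWS-FLI reads (7.65 to 23.5) lay 14.0 kb away at the end of ZNF687, at chr1:151281306-151282412. Near PSMC3 51 (38.0 to 67.1) and 6 reads (2.2 to 13.1) lay 10.4 kb away, nearest to SLC39A13. Near PSMB2 15 and 6 reads lay 41.9 kb away at KIAA0319L, and near PSMA2 6 and 5 reads lay 41.3 kb away. PSME3 had 13 siNEG reads 9.06 kb away at BECN1, and PSMB6 11 reads 34.8 kb away at MINK1, both with siNEG alone. The proteasome gene itself was the nearest gene at 6 of the 18 sites. How often this holds over all genes was not counted.

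Farther sites were stronger than the gene's own at 8 of the 29 proteasome genes with a siNEG gene-end summit. The same count was not made over all genes, so it is not known whether this share is usual. The window of PSMD13 held the strongest, 228 siNEG (199 to 260) and 15 siEWS-FLI reads (8.40 to 24.7) 29.5 kb away at BET1L. PSMD5 had 78 and 7 reads 22.7 kb away at FBXW2, against 5 siNEG reads of its own. PSMC5 had 55 and 16 reads 10.9 kb away at SMARCD2, PSMA3 43 and 9 reads at ARID4A, and PSMA7 41 and 8 reads at LSM14B. PSME1 and PSME2 lie in a dense region, with 8 and 9 siNEG summits within 50 kb and the same strongest site, 34 reads at EMC9. The 47 genes with a siNEG summit within 50 kb had 44 distinct strongest sites, since PSMB8 and PSMB9, and PSMB5 and PSMB11, also have one in common.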
